A study of Homo sapiens with 14 samples.

Results

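The 10 genes described here are the NF-kB subunits NFKB1, NFKB2, RELA and RELB, the inhibitors NFKBIA, NFKBIE and TNFAIP3, the ubiquitin ligases BIRC2 and BIRC3, and the adhesion receptor ICAM1. They were chosen by symbol, and all 10 were among the 13734 genes of the deposited matrix. RNA was sequenced from MDA-MB-231, an established human breast cancer line of basal type, in 14 libraries that form 7 groups of 2. Cells were transfected with siRNA against YAP and TAZ as mix 1 or mix 2 and harvested after 48 h. Others received siRNA against the BRD genes, which include BRD2 and BRD3, as mix A or mix B and were harvested after 72 h. A single pair of control siRNA libraries served both knockdowns. Further cells were treated with JQ1 at 1 µM for 24 h, a small molecule that displaces BET proteins such as BRD2 and BRD3 from acetylated lysines, and were set against DMSO. The labels give no harvest time for control siRNA or DMSO, do not say that the JQ1 and DMSO cells were transfected, and do not say that replicates came from separate cultures. The p-values therefore measure the spread between libraries of the same group, which may be technical. Each mix is its own group, so p-values and intervals taken over both mixes leave out the difference between the mixes. The series sets out to ask what BET proteins contribute to gene expression driven by YAP and TAZ.

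NF-kB factors are dimers of 5 related proteins, made from the genes RELA, RELB, REL, NFKB1 and NFKB2. In resting cells the IkB proteins, among them the products of NFKBIA and NFKBIE, hold the dimers in the cytoplasm. Signals from receptors such as those for TNF and interleukin-1 activate the IKK kinases, IkB is degraded, and the dimers bind kB sites in DNA. Several of the genes that are switched on in this way, NFKBIA, TNFAIP3 and BIRC3 among them, act back on the pathway. A slower, non-canonical route depends on the kinase NIK (MAP3K14) and yields dimers of RELB with processed NFKB2. In MDA-MB-231 and other breast cancer lines of basal type, NF-kB is known to be active without added stimulus.

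Sequences before the start sites are shown for 6 of the genes, since the members that carry a kB motif there did not move in 1 direction. RefSeq's promoter table on GRCh38.p14 matched 8 of the 10 genes with 13 start sites. RELB and NFKBIE had no entry. The kB consensus was searched on both strands from 250 bases before to 50 bases after each start, and 2075 of 35116 promoters (5.91%) held a match. The consensus matched at 6 start sites of 5 members, NFKB1, NFKB2, NFKBIA, TNFAIP3 and BIRC3, and at no start site of RELA, BIRC2 or ICAM1. Below are the last 210 bases before the start, 5′ to 3′ on the gene's strand, with matches to the consensus in capitals.
NFKB1: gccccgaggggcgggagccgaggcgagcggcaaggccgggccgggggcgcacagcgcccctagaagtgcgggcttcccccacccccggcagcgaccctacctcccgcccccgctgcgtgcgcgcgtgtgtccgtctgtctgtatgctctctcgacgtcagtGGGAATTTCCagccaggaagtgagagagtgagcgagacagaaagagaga
NFKB2: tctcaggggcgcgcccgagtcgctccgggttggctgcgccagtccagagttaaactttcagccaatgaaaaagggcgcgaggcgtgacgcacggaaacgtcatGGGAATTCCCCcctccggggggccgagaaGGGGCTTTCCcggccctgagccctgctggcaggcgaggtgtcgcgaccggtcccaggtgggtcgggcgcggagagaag
NFKBIA: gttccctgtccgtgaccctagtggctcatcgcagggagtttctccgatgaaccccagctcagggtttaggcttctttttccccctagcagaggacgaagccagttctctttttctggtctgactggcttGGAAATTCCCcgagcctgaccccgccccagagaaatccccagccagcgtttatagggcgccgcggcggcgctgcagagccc
TNFAIP3: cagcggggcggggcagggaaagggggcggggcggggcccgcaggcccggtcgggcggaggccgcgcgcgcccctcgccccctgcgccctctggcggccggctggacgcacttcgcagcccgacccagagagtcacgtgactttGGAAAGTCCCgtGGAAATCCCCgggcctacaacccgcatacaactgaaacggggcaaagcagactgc
BIRC3: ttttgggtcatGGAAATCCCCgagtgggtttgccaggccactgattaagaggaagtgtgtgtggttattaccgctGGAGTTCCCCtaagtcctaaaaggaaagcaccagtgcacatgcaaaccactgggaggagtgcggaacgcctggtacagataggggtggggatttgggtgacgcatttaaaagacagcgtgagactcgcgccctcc
ICAM1: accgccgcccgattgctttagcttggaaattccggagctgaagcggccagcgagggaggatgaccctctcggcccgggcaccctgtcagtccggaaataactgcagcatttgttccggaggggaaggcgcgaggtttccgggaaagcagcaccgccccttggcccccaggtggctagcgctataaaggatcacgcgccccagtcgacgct
The windows lie at chr4:102501149-102501358 (plus strand, NFKB1), chr10:102394368-102394577 (plus strand, NFKB2), chr14:35404750-35404959 (minus strand, NFKBIA), chr6:137867049-137867258 (plus strand, TNFAIP3), chr11:102317274-102317483 (plus strand, BIRC3) and chr19:10270910-10271119 (plus strand, ICAM1), all on GRCh38.p14. The start shown is the first of 2 in the table for NFKB1 and the second of 3 for NFKB2, and the other 4 genes have a single entry. For NFKB1 and NFKB2 the start shown is the one with most matches. The second start of NFKB1 and the first of NFKB2 held no match, and the third of NFKB2 held matches at -176 and -21. Which start these cells use was not tested. Counted from the start, the first base of the NFKB1 match is at -49. The NFKB2 window holds overlapping matches at -107 (both strands) and -106 (opposite strand) and a further match at -78. The NFKBIA match, on the opposite strand, lies at -81. TNFAIP3 has matches at -67 and -55 and BIRC3 at -199 and -135, all on the opposite strand. A match is a stretch of letters and not a site shown to be bound. The consensus searched was GGGRNWYYCC, where R is A or G, N any base, W A or T, and Y C or T. The ICAM1 window holds no full match to it. It does hold ggaaattccg, which differs from the NFKBIA match GGAAATTCCC only in the last letter. The search does not see stretches that depart from the consensus, so a window without a match may still hold a kB site.

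Between 15741695 and 37311326 reads per library fell in genes (median 23539829). Levels are given as scaled RPM, read counts relative to a library size that the authors adjusted. Each gene was tested with limma on log2(scaled RPM + 1), with p-values adjusted by Benjamini-Hochberg over 13674 genes and called under 0.05. Fold changes are on that scale and understate the change of genes of low level. A difference within an interval that spans 0 was not called, which does not show that the levels were equal. After YAP/TAZ siRNA, YAP1 differed by -3.02 and WWTR1 (TAZ) by -3.10 on the log2 scale from control siRNA, and after BRD siRNA, BRD2 differed by -0.53 and BRD3 by -1.58. VIM, a marker of basal-type lines, was at 2890 to 6610 scaled RPM, and 11 of 14 luminal markers were measured. Summed over 6 basal-type markers, levels were 4326.6 to 4543.8 after YAP/TAZ siRNA mix 1, 5969.2 to 6229.9 after mix 2, 5776.9 to 6015.5 after BRD siRNA mix A, 7352.8 to 7637.8 after mix B and 5934.2 to 6052.8 with control siRNA, and 10762 to 10768 with JQ1 against 7988 to 8032 with DMSO. Summed luminal levels were 2513.2 to 2738.8 after YAP/TAZ siRNA, 1360.9 to 1712.9 after BRD siRNA and 1407.9 to 1467.9 with control siRNA, and 5527.3 to 6005.3 with JQ1 against 1518.5 to 1519 with DMSO. A sum follows its most abundant genes. With JQ1, 5 of 11 luminal markers were called higher and 3 lower (median 0.14). Of 6 basal-type markers, 3 were higher and 2 lower. After YAP/TAZ siRNA, 9 luminal markers were higher and 0 lower, and 1 basal-type marker was higher and 3 lower. BRD siRNA gave 4 luminal markers higher and 4 lower, and 5 basal-type markers higher and 0 lower (median 0.48). Of all tested genes, 37.6% were higher and 36.3% lower with JQ1, 43.1% and 35.9% after YAP/TAZ siRNA, and 37.6% in each direction after BRD siRNA. Of 14 leukocyte markers 4 were measured, with sums of 122.91 to 183.38 after YAP/TAZ siRNA, 38.235 to 42.857 after BRD siRNA and 67.464 to 69.704 with control siRNA, and 79.808 to 83.316 with JQ1 against 70.576 to 71.716 with DMSO. CD68 made up most of those sums, while CD14 stayed at 4.9 or below and CD8A at 3.44 or below. Sums of 4 fibroblast and endothelial markers of 13 were 39.072 to 47.615 after YAP/TAZ siRNA, 32.691 to 53.239 after BRD siRNA and 13.589 to 17.938 with control siRNA, and 18.153 to 18.894 with JQ1 against 12.222 to 13.283 with DMSO. The part of these shifts in the results was not tested. In bulk RNA, fewer cells that express a gene and less RNA per cell cannot be told apart.

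The members differed widely in how much they moved. ICAM1 spanned 33.5-fold between the highest and the lowest group mean, and NFKB1, BIRC3, NFKBIA and TNFAIP3 spanned 7.44, 6.22, 5.35 and 4.34-fold. RELB spanned 3.49-fold and BIRC2 2.15-fold. NFKB2 with 1.99-fold, NFKBIE with 1.77-fold and RELA with 1.63-fold varied least. No group was highest or lowest for all of them. DMSO held the highest mean of NFKB1, TNFAIP3 and BIRC2 and the lowest of NFKBIA, while JQ1 held the lowest mean of TNFAIP3, BIRC2 and ICAM1.

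**Figure D1:**
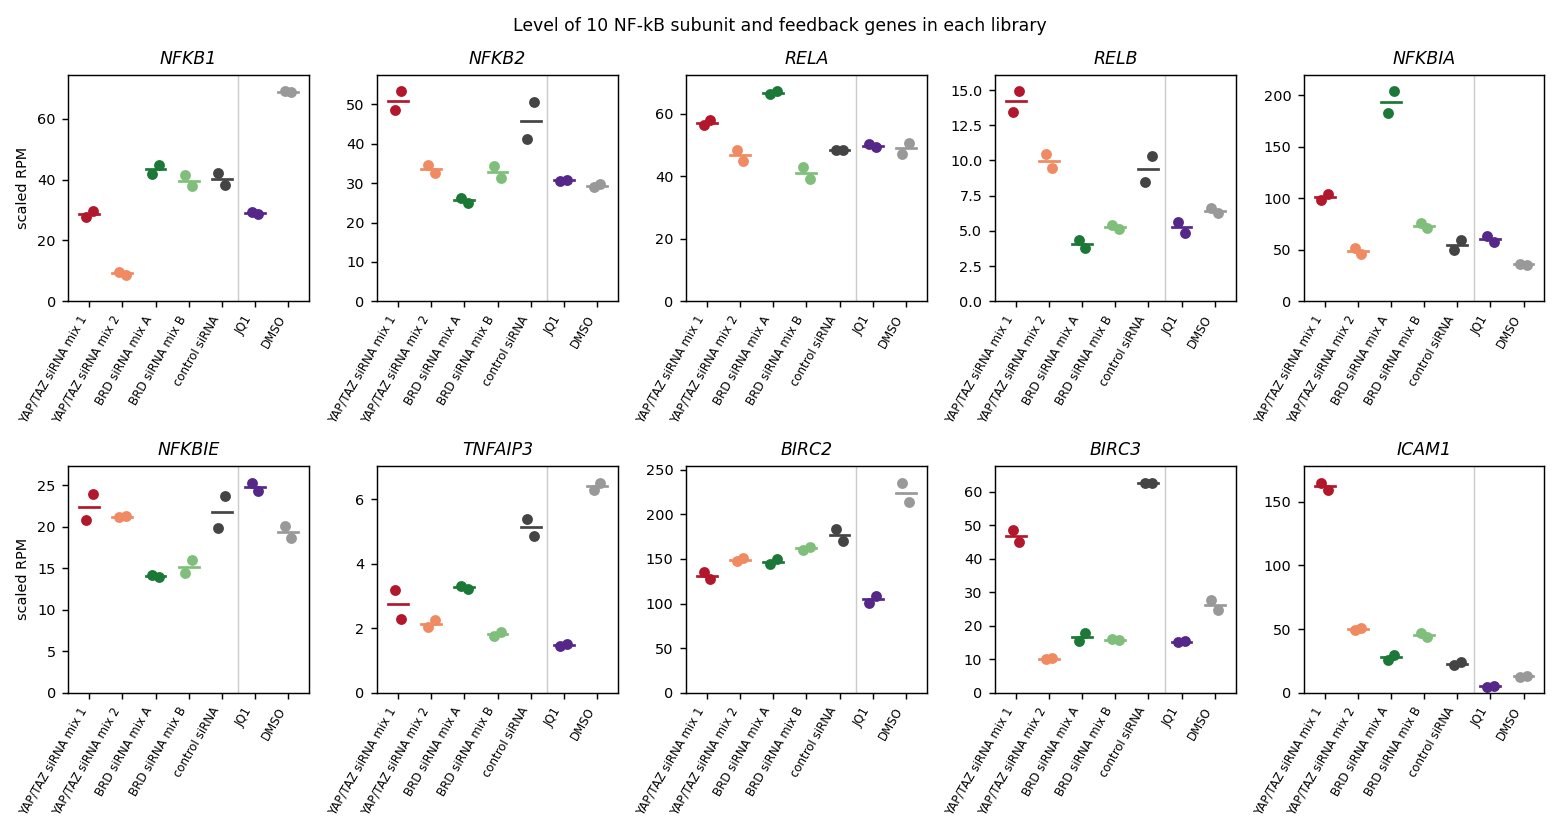
Level of each of the 10 genes (vertical axis, scaled RPM, each panel with its own scale from 0) in the 14 libraries, by group (horizontal axis), points for libraries and bars for the mean of 2. ICAM1 stood highest after YAP/TAZ siRNA mix 1, NFKBIA after BRD siRNA mix A and NFKB1 with DMSO.

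Among the subunits, NFKB1, which encodes p105 and its product p50, was lower after YAP/TAZ siRNA and with JQ1 and was not called after BRD siRNA. It had 27.7 and 29.6 scaled RPM after YAP/TAZ siRNA mix 1 and 9.73 and 8.81 after mix 2, against 42.1 and 38.2 with control siRNA. All 4 knockdown libraries lay below both controls, and the difference was -1.24 on the log2 scale (SE 0.0663, limma adjusted p = 3.9e-13). With JQ1 it had 29.5 and 28.6 scaled RPM, against 69.0 and 68.9 with DMSO, a difference of -1.22 (SE 0.0765, limma adjusted p = 7.59e-12). After BRD siRNA it had 41.8 and 44.9 (mix A) and 41.4 and 37.9 (mix B), which overlapped the control siRNA values. That difference was 0.04, with a 95% interval of -0.0946 to 0.182.

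NFKB2 encodes p100, which is processed to p52 in the non-canonical route. It was lower after BRD siRNA, with 26.4 and 24.9 scaled RPM for mix A and 34.4 and 31.4 for mix B, against 41.2 and 50.5 with control siRNA. The libraries did not overlap, and the difference was -0.64 (SE 0.0734, limma adjusted p = 1.08e-07). Set against DMSO, where NFKB2 had 28.98 and 29.82, the same BRD siRNA libraries differed by -0.02 (adjusted p = 0.822). NFKB2 had 30.6 and 30.9 with JQ1, and the difference of 0.06 from DMSO was not called (95% interval -0.115 to 0.239). After YAP/TAZ siRNA it had 48.5 and 53.3 with mix 1 and 34.7 and 32.5 with mix 2. The mixes lay on opposite sides of the control mean, and their joint difference of -0.14 was not called (limma adjusted p = 0.0914). It was called lower with median-ratio scaling (-0.18, adjusted p = 0.0295), with DESeq2 (-0.19, 0.0406) and without control siRNA replicate 1 (-0.28, 0.0036), while it was 0.00601 without control siRNA replicate 2.

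RELA encodes p65, the main activating subunit of the canonical route. It was not called in any of the 3 comparisons taken over both mixes, with differences of 0.09 after YAP/TAZ siRNA (95% interval -0.0261 to 0.209), 0.11 after BRD siRNA (-0.00788 to 0.228) and 0.03 with JQ1 (-0.11 to 0.162). It was called higher after YAP/TAZ siRNA with upper-quartile scaling (0.16, adjusted p = 0.0149) and after BRD siRNA without mix B replicate 2 (0.14, 0.0434). It had 56.2 and 57.8 scaled RPM after YAP/TAZ siRNA mix 1 and 48.5 and 44.9 after mix 2, and mix 1 alone differed from control siRNA by 0.23 (limma adjusted p = 0.00306). It had 50.3 and 49.2 scaled RPM with JQ1, against 47.1 and 50.6 with DMSO. Between the BRD siRNA mixes, however, it moved in opposite directions. It had 66.2 and 67.1 after mix A and 42.8 and 39.1 after mix B, against 48.2 and 48.5 with control siRNA.

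RELB, the partner of processed NFKB2, was lower after BRD siRNA and higher after YAP/TAZ siRNA. It had 4.36 and 3.78 scaled RPM after BRD siRNA mix A and 5.41 and 5.11 after mix B, against 8.47 and 10.3 with control siRNA. The difference was -0.88 (SE 0.0995, limma adjusted p = 8.08e-08), and all 4 libraries lay below both controls. After YAP/TAZ siRNA it had 13.5 and 14.9 with mix 1 and 10.5 and 9.45 with mix 2. The mix 2 values overlapped the control values, and the joint difference was 0.32 (SE 0.0995, limma adjusted p = 0.00639). Without control siRNA replicate 1 it was 0.19 (adjusted p = 0.16). With JQ1 RELB had 5.62 and 4.88, against 6.61 and 6.27 with DMSO, a difference of -0.25 that missed the threshold (limma adjusted p = 0.0521).

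Of the inhibitors, NFKBIA was higher in all 3 comparisons. NFKBIA encodes IkB-alpha, which retains dimers in the cytoplasm and is itself induced by NF-kB. It had 183 and 204 scaled RPM after BRD siRNA mix A and 75.8 and 71.0 after mix B, against 50.2 and 59.5 with control siRNA. All 4 libraries lay above both controls, with a difference of 1.11 (SE 0.0698, limma adjusted p = 7.64e-12), or 2.16-fold. With JQ1 it had 63.4 and 57.4, against 36.7 and 35.5 with DMSO, a difference of 0.72 (SE 0.0806, limma adjusted p = 6.35e-08). After YAP/TAZ siRNA it had 98.1 and 104 with mix 1 and 51.8 and 46.0 with mix 2. The joint difference was 0.36 (SE 0.0698, limma adjusted p = 9.47e-05), and without control siRNA replicate 1 it was 0.24. Mix 1 alone differed by 0.88, while mix 2 differed by -0.16 (adjusted p = 0.0726). The mix 2 difference was called lower, opposite to mix 1, with median-ratio scaling (-0.20, adjusted p = 0.0261), with DESeq2 (-0.21, 0.0366), without control siRNA replicate 1 (-0.28, 0.00663) and without mix 2 replicate 1 (-0.25, 0.0298).

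NFKBIE, which encodes IkB-epsilon, went in opposite directions after BRD siRNA and with JQ1. It had 14.1 and 13.9 scaled RPM after mix A and 14.4 and 15.9 after mix B, against 19.8 and 23.7 with control siRNA, a difference of -0.54 (SE 0.0809, limma adjusted p = 4.02e-06). With JQ1 it had 25.3 and 24.3, against 20.03 and 18.67 with DMSO, a difference of 0.34 (SE 0.0934, limma adjusted p = 0.00248). In neither comparison did the libraries overlap. After YAP/TAZ siRNA its 4 libraries at 20.8 to 23.94 lay within or close to the control values, with a difference of 0.00 (95% interval -0.165 to 0.173).

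TNFAIP3, which encodes the ubiquitin-editing enzyme A20, a brake on signalling from TNF and Toll-like receptors, was lower in all 3 comparisons. It had 3.20 and 2.30 scaled RPM after YAP/TAZ siRNA mix 1 and 2.04 and 2.25 after mix 2, against 5.38 and 4.88 with control siRNA, a difference of -0.84 (SE 0.108, limma adjusted p = 4.2e-07). After BRD siRNA it had 3.32 and 3.21 with mix A and 1.77 and 1.88 with mix B, a difference of -0.82 (limma adjusted p = 6.83e-07). With JQ1 it had 1.44 and 1.51, against 6.29 and 6.52 with DMSO, a difference of -1.58 (SE 0.124, limma adjusted p = 2.89e-10). Every treated library lay below its controls. The JQ1 values rested on 36 and 43 reads, against 194 and 236 with DMSO, so TNFAIP3 is among the less precise members. With a pseudocount of 4 in place of 1 the 3 differences shrank to -0.50, -0.49 and -0.93 and all stayed called.

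BIRC2 and BIRC3 encode the ubiquitin ligases cIAP1 and cIAP2, which ubiquitinate RIPK1 at the TNF receptor and, with TRAF2 and TRAF3, keep NIK low. Both were lower in all 3 comparisons, and their sizes were ordered differently. BIRC3 had 48.6 and 44.9 scaled RPM after YAP/TAZ siRNA mix 1 and 9.94 and 10.2 after mix 2, against 62.7 and 62.8 with control siRNA, a difference of -1.47 (SE 0.0724, limma adjusted p = 9.79e-14). After BRD siRNA it had 15.5 and 17.9 with mix A and 15.9 and 15.7 with mix B, a difference of -1.89 (SE 0.0724, limma adjusted p = 2.69e-15), or 3.69-fold. These 4 libraries lay within a narrow range, all far below the controls. With JQ1 BIRC3 had 15.0 and 15.3, against 27.7 and 24.7 with DMSO, a difference of -0.74 (SE 0.0836, limma adjusted p = 7.37e-08).

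BIRC2 changed little after the knockdowns. It had 134.9 and 128 scaled RPM after YAP/TAZ siRNA mix 1 and 147 and 151 after mix 2, against 184 and 170.3 with control siRNA, a difference of -0.34 (SE 0.0526, limma adjusted p = 5.76e-06). After BRD siRNA it had 144 and 150.3 with mix A and 160.5 and 164 with mix B. That difference of -0.20 (SE 0.0526, limma adjusted p = 0.00209) was -0.14 with an adjusted p of 0.0586 without control siRNA replicate 1. With JQ1 it had 101 and 108, against 236 and 214 with DMSO, a difference of -1.10 (SE 0.0607, limma adjusted p = 9.94e-13). In RefSeq's gene order on chromosome 11, BIRC3 lies between YAP1 and BIRC2 among the protein-coding genes. YAP1 itself differed by -0.85 from control siRNA after BRD siRNA and by -0.84 from DMSO with JQ1. How reads shared by BIRC2 and BIRC3, which are similar in sequence, were counted is not stated in the labels.

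ICAM1, an adhesion receptor for leukocytes and a known NF-kB target, was higher after both knockdowns and lower with JQ1. It had 165 and 159 scaled RPM after YAP/TAZ siRNA mix 1 and 49.3 and 50.6 after mix 2, against 21.4 and 24.1 with control siRNA. The 4 libraries lay above both controls, with a difference of 1.94 (SE 0.0707, limma adjusted p = 7.05e-16), or 3.85-fold. After BRD siRNA it had 25.6 and 29.8 with mix A and 47.0 and 44.0 with mix B, a difference of 0.62 (SE 0.0707, limma adjusted p = 8.12e-08). With JQ1 it had 4.77 and 4.92, against 12.5 and 13.4 with DMSO, a difference of -1.26 (SE 0.0816, limma adjusted p = 1.3e-11). Summed luminal, leukocyte, and fibroblast and endothelial markers also stood higher after YAP/TAZ siRNA than with control siRNA, and their part in the ICAM1 values was not tested. In the GENCODE annotation, exons of ICAM1, RELA and TNFAIP3 overlap genes on the opposite strand. Whether reads were counted by strand is not stated, so reads from those partners cannot be told apart.

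**Figure D2:**
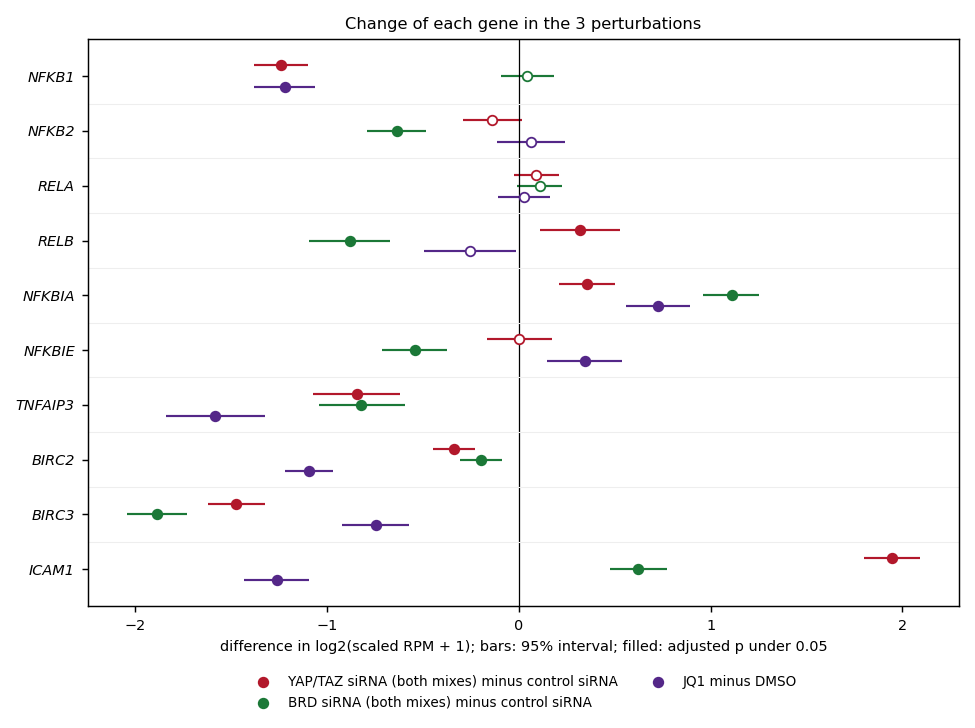
Difference in log2(scaled RPM + 1) for each gene (horizontal axis, with 95% intervals) after YAP/TAZ siRNA and after BRD siRNA, each over both mixes against control siRNA, and with JQ1 against DMSO. Filled points were called at an adjusted p under 0.05. BIRC3, TNFAIP3 and BIRC2 lay left of 0 and NFKBIA right of 0 in all 3, and ICAM1 was at 1.94 after YAP/TAZ siRNA and -1.26 with JQ1.

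Over the whole set, 7 of the 10 members were called after YAP/TAZ siRNA, 3 higher and 4 lower, where 78.9% of all tested genes were called (43.1% higher, 35.9% lower). After BRD siRNA 8 were called, 2 higher and 6 lower, where 75.2% of all tested genes were called (37.6% in each direction). With JQ1 7 were called, 2 higher and 5 lower, where 73.9% were called (37.6% higher, 36.3% lower). These counts are near the background and say nothing particular about the members. Calls of at least 2-fold were made for 3 members after YAP/TAZ siRNA (17.9% of all tested genes), 2 after BRD siRNA (13.3%) and 4 with JQ1 (17.5%). The median change of the members was -0.07 after YAP/TAZ siRNA, -0.37 after BRD siRNA and -0.50 with JQ1, where the medians of all tested genes were 0.07, -0.00 and 0.01. The 2 knockdowns share their control siRNA libraries, so their differences are given side by side and are not independent.

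The kB matches went with no single direction. Of the 5 members that carry a match, NFKB1, TNFAIP3 and BIRC3 were called lower and NFKBIA higher after YAP/TAZ siRNA and with JQ1, while NFKB2 was called in neither. After BRD siRNA, NFKB2, TNFAIP3 and BIRC3 were called lower and NFKBIA higher, and NFKB1 was not called. BIRC2 and ICAM1, without a full match to the consensus in the window, were called in all 3. RELA, also without a match, was called in none of them. Of all tested genes, 78.9% were called after YAP/TAZ siRNA, 75.2% after BRD siRNA and 73.9% with JQ1. Calls with or without a match therefore say nothing particular about the motif.

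The siRNA mixes against the same genes differed in their effect on several members. Between YAP/TAZ siRNA mix 1 and mix 2, 8 members were called, 7 higher and 1 lower with mix 1, where 65.7% of all tested genes were called, 30.9% higher and 34.8% lower. BIRC3 was 2.11 higher on the log2 scale with mix 1 than with mix 2, ICAM1 1.68, NFKB1 1.53, NFKBIA 1.04, NFKB2 0.58, RELB 0.47 and RELA 0.28 (limma adjusted p between 8.4e-15 and 0.00124). BIRC2 was the exception at -0.18, a call that ended without mix 1 replicate 2 (adjusted p = 0.115) or mix 2 replicate 2 (0.0738). The directions against control siRNA were shared by both mixes for NFKB1 (-0.47 with mix 1, -2.00 with mix 2), TNFAIP3 (-0.72, -0.96), BIRC2 (-0.43, -0.25), BIRC3 (-0.42, -2.52) and ICAM1 (2.78, 1.11), each called with each mix. Against control siRNA, mix 1 gave 8 calls, 4 in each direction, where 74.3% of all tested genes were called (40.6% higher, 33.6% lower), and mix 2 gave 6, 1 higher and 5 lower, where 78.4% were called (42.7% higher, 35.7% lower). The residual levels of the targets differed as well, with YAP1 0.22 and WWTR1 0.33 higher with mix 1 than with mix 2, and their part in the differences was not tested.

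Between BRD siRNA mix A and mix B, 6 members were called, 3 higher and 3 lower with mix A, where 50% of all tested genes were called (25.7% higher, 24.3% lower). NFKBIA was 1.38 higher with mix A than with mix B (SE 0.0806, limma adjusted p = 1.2e-11), RELA 0.69 (2.12e-08) and TNFAIP3 0.60 (0.000433), or 0.32 for TNFAIP3 with a pseudocount of 4. ICAM1 differed by -0.70 (4.12e-07), NFKB2 by -0.35 (0.0018) and RELB by -0.31 (0.0315). The RELB call ended when only these libraries were fitted (adjusted p = 0.0661), with DESeq2 on recovered reads (0.0909), and without mix A replicate 2 (0.194), mix B replicate 1 (0.142) or mix B replicate 2 (0.0658). BIRC3 was -1.85 with mix A and -1.92 with mix B against control siRNA, and the mixes did not differ beyond an interval of -0.104 to 0.245. Against control siRNA, mix A gave 9 calls, 3 higher and 6 lower, where 73.3% of all tested genes were called (37.2% higher, 36.1% lower), and mix B gave 8, 2 higher and 6 lower, where 70.8% were called (35.3% higher, 35.5% lower). ICAM1 was 0.27 higher with mix A than with control siRNA, a call lost without control siRNA replicate 1 (0.19, adjusted p = 0.0763) or mix A replicate 2 (0.17, adjusted p = 0.0995), and 0.97 higher with mix B. RELA was 0.46 higher with mix A (limma adjusted p = 2.44e-06) and differed by -0.24 with mix B (0.00307). The mix B call ended without mix B replicate 2 (-0.17, adjusted p = 0.0686). Between the mixes BRD2 was 0.24 and WWTR1 0.63 higher with mix A than with mix B.

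**Figure D3:**
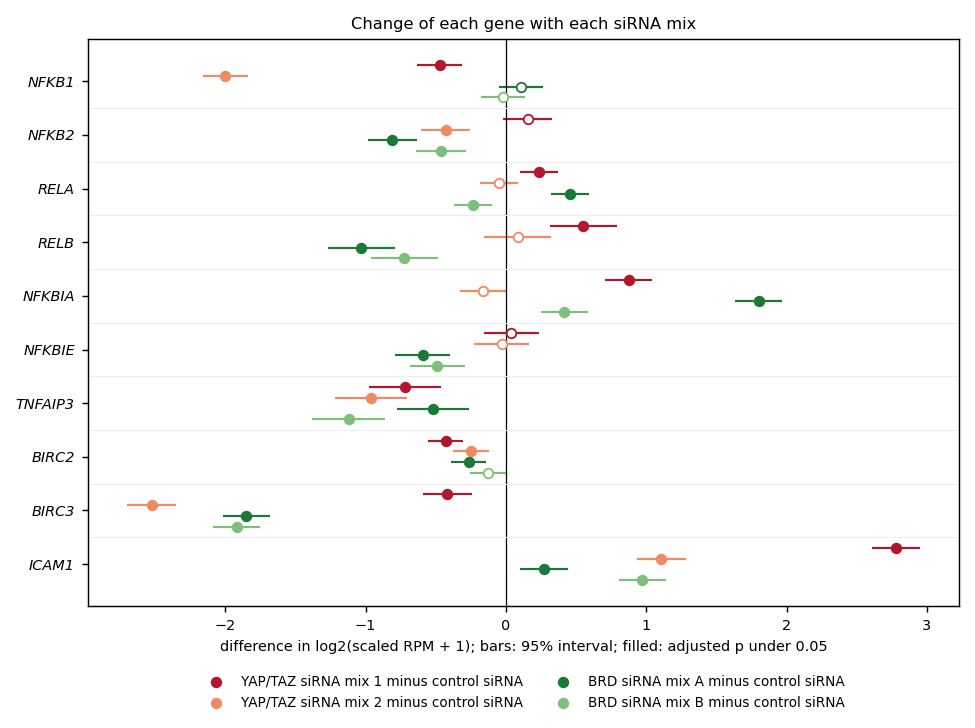
Difference of each gene from control siRNA in log2(scaled RPM + 1), with 95% intervals, for each siRNA mix. BIRC3 was at -0.42 with YAP/TAZ siRNA mix 1 and -2.52 with mix 2, NFKBIA at 1.801 with BRD siRNA mix A and 0.42 with mix B, and RELA on opposite sides of 0 with the BRD siRNA mixes.

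JQ1 acts on BET proteins and the BRD siRNAs lower their messages, so the 2 effects were compared directly, each against its own control. They differed for 9 of the 10 members, 4 with a higher and 5 with a lower JQ1 effect, where 60.1% of all tested genes differed (30.2% higher, 29.9% lower). The JQ1 effect lay below the BRD siRNA effect by the widest margin for ICAM1 (-1.88, SE 0.108, limma adjusted p = 1.08e-11), followed by NFKB1 (-1.26, 1.49e-09), BIRC2 (-0.90, 7.37e-09), TNFAIP3 (-0.76, 0.000473) and NFKBIA (-0.38, 0.004). It lay above it for BIRC3 (1.14, SE 0.111, limma adjusted p = 2.39e-08), NFKBIE (0.88, 3.45e-06), NFKB2 (0.70, 1.94e-05) and RELB (0.62, 0.00139). With a pseudocount of 4 the TNFAIP3 difference was -0.44. RELA did not differ beyond an interval of -0.264 to 0.0958. The agents also differed in time (24 h and 72 h) and in control, and BRD2 differed by 1.91 with JQ1 and -0.53 after BRD siRNA, so the agent, the time and the control cannot be told apart.

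Against YAP/TAZ siRNA the JQ1 effect differed for 7 members, 3 higher and 4 lower, where 63.3% of all tested genes differed (30.9% higher, 32.4% lower). ICAM1 stood out in size at -3.20 (SE 0.108, limma adjusted p = 1.77e-15), since it was higher after YAP/TAZ siRNA and lower with JQ1. BIRC2 differed by -0.76, TNFAIP3 by -0.74 (-0.42 with a pseudocount of 4), RELB by -0.57, BIRC3 by 0.73, NFKBIA by 0.37 and NFKBIE by 0.34. The NFKBIE difference passed at an adjusted p of 0.0216 and ended without control siRNA replicate 2 (0.22, adjusted p = 0.149), DMSO replicate 2 (0.0919), JQ1 replicate 1 (0.0747) or mix 1 replicate 1 (0.0511). The NFKBIA call also ended without control siRNA replicate 2 (0.25, adjusted p = 0.05), which left 5 members called. The NFKB2 difference of 0.20 was not called (adjusted p = 0.127) and passed without control siRNA replicate 1 (0.34, adjusted p = 0.00901). NFKB1 was at -1.22 with JQ1 and at -1.24 after YAP/TAZ siRNA when both mixes were averaged. That difference of 0.02 had an interval of -0.191 to 0.23. Neither mix alone was close to the JQ1 value, with NFKB1 at -0.47 after mix 1 and -2.00 after mix 2. The agents also differed in time (24 h and 48 h) and in control, so the agent, the time and the control cannot be told apart.

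**Figure D4:**
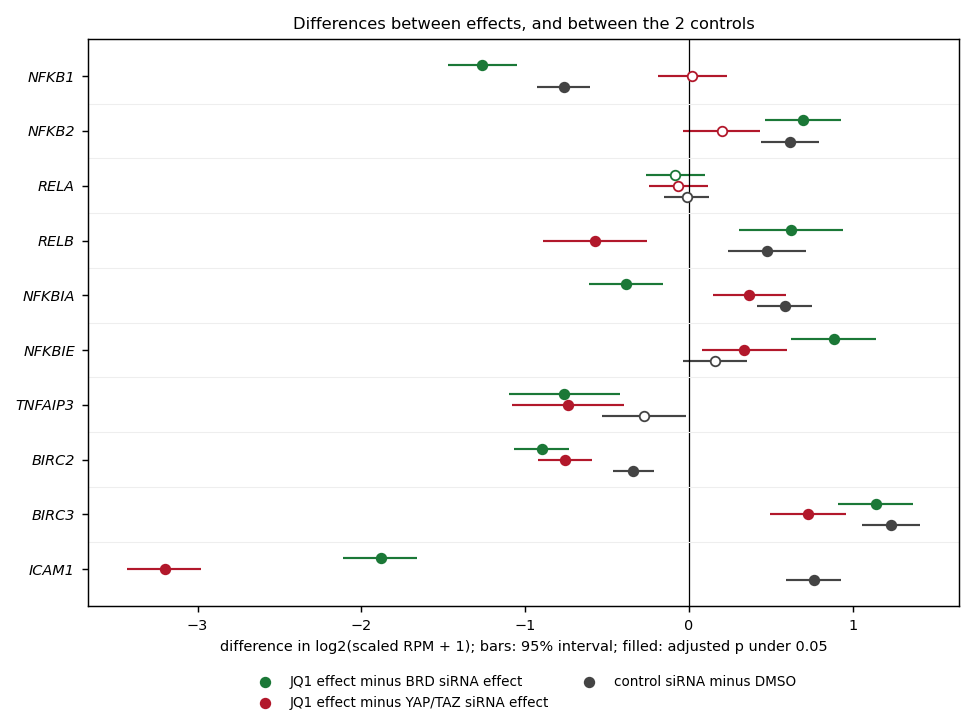
JQ1 effect minus the BRD siRNA effect, JQ1 effect minus the YAP/TAZ siRNA effect, and control siRNA minus DMSO for each gene (horizontal axis, log2 units with 95% intervals, filled where called). ICAM1 was at -1.88, -3.20 and 0.76 in these, BIRC3 at 1.14, 0.73 and 1.23, and the intervals of RELA spanned 0 in each.

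The controls were themselves unlike in these genes. Between control siRNA and DMSO 7 of the 10 members were called, 5 higher and 2 lower with control siRNA, where 54.2% of all tested genes were called (25.4% higher, 28.7% lower). BIRC3 was 1.23 higher on the log2 scale with control siRNA than with DMSO, or 2.35-fold (SE 0.0836, limma adjusted p = 1.77e-10), ICAM1 0.76, NFKB2 0.62, NFKBIA 0.59 and RELB 0.48. NFKB1 differed by -0.77 and BIRC2 by -0.34. Transfection, time and solvent cannot be told apart in this contrast. With DMSO in place of control siRNA, the YAP/TAZ siRNA differences became -2.00 for NFKB1, 0.48 for NFKB2, 0.79 for RELB, 0.94 for NFKBIA, -0.68 for BIRC2 and -0.24 for BIRC3. The BRD siRNA differences became -0.72 for NFKB1, -0.40 for RELB, 1.69 for NFKBIA, -0.54 for BIRC2, -0.65 for BIRC3 and 1.39 for ICAM1, all called. BIRC3 after YAP/TAZ siRNA mix 1 turned to 0.81 above DMSO, since its 48.6 and 44.9 scaled RPM lay between the 2 controls.

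In the order of group means, neighbours were often indistinct. NFKB1 ran from DMSO (68.93 scaled RPM) through BRD siRNA mix A (43.35), control siRNA (40.19) and BRD siRNA mix B (39.61), which overlapped in turn, to JQ1 (29.05) and YAP/TAZ siRNA mix 1 (28.66), which also overlapped, and YAP/TAZ siRNA mix 2 (9.268). BIRC3 ran from control siRNA (62.72) through YAP/TAZ siRNA mix 1 (46.74) and DMSO (26.17) to BRD siRNA mix A (16.72) and mix B (15.84), which overlapped, then JQ1 (15.19) and YAP/TAZ siRNA mix 2 (10.09). ICAM1 had no overlap between neighbours, from YAP/TAZ siRNA mix 1 (162.1) through mix 2 (49.94), BRD siRNA mix B (45.52) and mix A (27.7), control siRNA (22.72) and DMSO (12.98) to JQ1 (4.845). For RELA, JQ1 (49.73), DMSO (48.86), control siRNA (48.34) and YAP/TAZ siRNA mix 2 (46.69) overlapped one with the next. With 2 libraries a group, ranges that do not overlap are no test.

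The rest of the pathway was examined in lists of textbook genes. The counts of every list are to be read beside the shares of all tested genes. These were 43.1% higher and 35.9% lower after YAP/TAZ siRNA, and 37.6% in each direction after BRD siRNA. With JQ1 they were 37.6% higher and 36.3% lower. Of the 9 other genes of the NF-kB and IkB family, 4 were higher and 5 lower after YAP/TAZ siRNA, 2 higher and 5 lower after BRD siRNA, and 5 higher and 2 lower with JQ1. REL, the remaining subunit, was lower after YAP/TAZ siRNA (-0.65) and after BRD siRNA (-0.71) than with control siRNA, and higher with JQ1 than with DMSO (0.67). BCL3, a nuclear IkB protein that pairs with p50 and p52, was 1.36 higher after YAP/TAZ siRNA, differed by -0.47 after BRD siRNA and was 0.54 higher with JQ1. It averaged 12.7 and 8.89 scaled RPM with YAP/TAZ siRNA mix 1 and mix 2, against 3.53 with control siRNA. NFKBID, a further nuclear IkB protein, was lower in all 3, at -0.40 after YAP/TAZ siRNA, -1.06 after BRD siRNA and -1.12 with JQ1.

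Among 17 genes of the IKK complex and the kinases above it, 8 were higher and 5 lower after YAP/TAZ siRNA, 6 higher and 7 lower after BRD siRNA, and 8 higher and 4 lower with JQ1. CHUK, the kinase IKK-alpha that drives the non-canonical route, averaged 43.5 and 35 scaled RPM with YAP/TAZ siRNA mix 1 and mix 2 and 36.3 and 43.9 with BRD siRNA mix A and mix B, against 88.1 with control siRNA. It differed by -1.16 after YAP/TAZ siRNA (limma adjusted p = 6.22e-14), by -1.12 after BRD siRNA (1.49e-13) and by -0.37 with JQ1. MAP3K8, a kinase of the p105 complex, was 1.39 higher with JQ1, and IKBKE, an IKK-related kinase, was lower at -1.02 after BRD siRNA. MAP3K3 differed by -0.90 after BRD siRNA and by 0.96 with JQ1. The kinases and partners of BIRC2 and BIRC3 in the control of NIK were picked out after their values were seen. Of these, TRAF2 was lower at -1.35 after YAP/TAZ siRNA, -1.29 after BRD siRNA and -1.29 with JQ1, and TRAF3 at -1.43, -0.56 and -1.11. MAP3K14 was lower at -0.83 after YAP/TAZ siRNA and -0.69 after BRD siRNA, and its difference of -0.08 with JQ1 was not called (limma adjusted p = 0.363).

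Of 31 receptors, adaptors and ligands 28 were tested, and 12 were higher and 5 lower after YAP/TAZ siRNA, 9 higher and 15 lower after BRD siRNA, and 6 higher and 16 lower with JQ1. TNFRSF12A, the receptor for TWEAK, was lower at -1.91 after YAP/TAZ siRNA, and higher by 1.06 after BRD siRNA and 0.96 with JQ1. TNFRSF1A, the main TNF receptor, was 0.92 higher after YAP/TAZ siRNA. TLR3, a receptor for double-stranded RNA, was lower at -2.40 after BRD siRNA and -1.83 with JQ1, and its difference of 0.22 after YAP/TAZ siRNA was not called (limma adjusted p = 0.114). TRADD, the adaptor of the TNF receptor, was higher in all 3, at 1.21 after YAP/TAZ siRNA, 1.15 after BRD siRNA and 1.65 with JQ1.

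Of 20 ubiquitin-editing and feedback genes 19 were tested, and 10 were higher and 5 lower after each knockdown, and 11 higher and 4 lower with JQ1. OTULIN, which removes linear ubiquitin chains, was lower at -1.26 after YAP/TAZ siRNA, and UBE2N, which builds K63-linked chains, at -1.23. Of 39 textbook targets 27 were tested, and 8 were higher and 11 lower after YAP/TAZ siRNA, 9 higher and 14 lower after BRD siRNA, and 10 higher and 14 lower with JQ1. PLAU, the urokinase protease, was lower in all 3, at -3.03, -1.18 and -2.12. CSF1, a macrophage growth factor, was higher by 1.74 after YAP/TAZ siRNA and 1.87 after BRD siRNA and differed by -0.48 with JQ1. CSF2, the growth factor GM-CSF, was lower in all 3, at -1.82, -2.87 and -1.16. LIF, a cytokine of the interleukin-6 family, was lower at -2.00 with JQ1. Targets thus went both ways in each comparison, as the members and all tested genes did. Between YAP/TAZ siRNA mix 1 and mix 2, 17 of the 27 targets were higher and 6 lower with mix 1, and 18 of the 28 receptors, adaptors and ligands were higher and 3 lower, where 30.9% of all tested genes were higher and 34.8% lower.

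**Figure D5:**
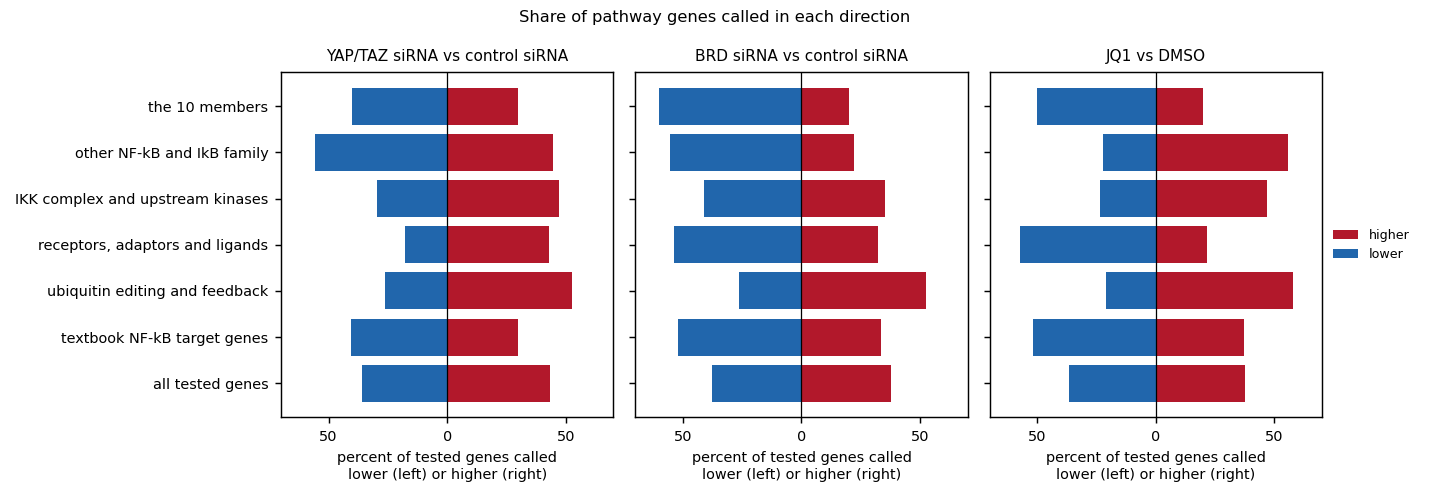
Percent of tested genes called higher (right) and lower (left) in each list, for YAP/TAZ siRNA and BRD siRNA against control siRNA and JQ1 against DMSO, with the 10 members at one end and all tested genes at the other. Each list had calls in both directions, as had all tested genes. Of 28 receptors, adaptors and ligands, 12 were higher after YAP/TAZ siRNA, where 43.1% of all tested genes were. With JQ1, 16 of the 28 were lower, where 36.3% of all tested genes were.

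As a description, members were matched to the genes most like them by Pearson's r of log2 levels over the 14 libraries, which share treatments within a group. NFKB1 was most like SLC35F2 (0.988) and KLHL18 (0.977), BIRC3 most like SUCO (0.986) and TRIM44 (0.978), and ICAM1 most like PCDHB14 (0.99) and ETV6 (0.981). For the other members the highest value was BTBD3 for NFKB2 (0.94), PRNP for RELA (0.966), MVK for RELB (0.971), SUN1 for NFKBIA (0.966), CCND3 for NFKBIE (0.953), SLC43A3 for TNFAIP3 (0.975) and MTPAP for BIRC2 (0.974). Among the members themselves the most alike were NFKB2 and RELB (0.872), the partners of the non-canonical route, followed by TNFAIP3 and BIRC2 (0.814), and the least alike were NFKBIA and NFKBIE (-0.517).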

How the data were processed

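Per the labels' protocols, stranded libraries were prepared from ribosome-depleted total RNA. Listed in the submitters' processing notes are TopHat2 2.0.5 and HTSeq 0.6.0, CASAVA 1.8.4, R 3.0.0, edgeR and the build hg19. Annotation, strand setting and scaling are, in the sources used here, not given. The deposited values were treated as a signal, since the columns, named CPM, summed to 903627 to 1098051 and not to a single total. Whole reads were recovered for 100% of values at a tolerance of 0.01. The scaling behind the deposited signal, 0.911 to 1.11, differed from TMM factors of edgeR by at most 0.00185. A single read was worth 0.0276 to 0.0602 scaled RPM. The table held 0 columns of other samples.

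Values were tested as log2(value + 1) with limma 3.58.1 (R 4.3.3) in 1 model of the 7 groups, on the 13674 genes at 1 or more in at least 2 libraries. The model had a variance trend, 7 residual and 13.2 prior degrees of freedom. Two-sided p-values were adjusted by Benjamini-Hochberg within each of 12 comparisons. The plan had assumed CPM, and the test fits both units. The scripts were tested on simulated data. Alternatives were a pseudocount of 0.25 or 4, a filter at 5 or none, median-ratio and upper-quartile scaling, a replicate block, no variance trend, edgeR 4.0.16 and DESeq2 1.42.0 on recovered reads, only the libraries compared, leaving out each library, and DMSO as the control for the knockdowns. The genes and pathway lists were chosen with earlier results of these data known. The text names all 10 members, the targeted genes, and from each pathway list genes among up to 3 with the largest moderated statistic in each main comparison, or any of a list under 10 tested, and says where others were picked after their values were seen. It also names the 2 genes most correlated with members. Marker lists were examined as sums and, for luminal and basal-type markers, also as counts of calls. Not every targeted gene is reported here. The kB motif search used RefSeq's promoter table on GRCh38.p14.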

Additional observations from a re-analysis of the deposited data

Results flagged for a closer look

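RELA differed between the siRNA mixes against the BRD genes. It had 66.2 and 67.1 scaled RPM after mix A and 42.8 and 39.1 after mix B, against 48.2 and 48.5 with control siRNA, so that both libraries of mix A lay above both controls and both of mix B below. The direct contrast of mix A with mix B was 0.69 on the log2 scale (SE 0.0653, limma adjusted p = 2.12e-08), larger than the spread between replicates. The mixes share their control siRNA libraries, which do not enter this difference. They do enter the estimate of spread that all 7 groups share, and so the SE and the p-value.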

How the results depend on the processing

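No alternative moved the count of called members in any of the 12 comparisons by over 1.5 times. With 10 members, a count of 7 or more could not rise that far, so this bound says little. Leaving out 1 library gave 7 calls each time after YAP/TAZ siRNA, 7 to 9 after BRD siRNA and 7 to 8 with JQ1, and other settings gave 7 to 8, 8 and 7 to 8. No consistent pairing of libraries by replicate number was seen, with 7 of 21 correlations between groups over 0.1 (range -0.373 to 0.254). That does not show that the libraries were unpaired. A model with the replicate block gave the same 7, 8 and 7 calls and left all 120 member values on their side of the threshold. Outside of leaving out libraries, 1338 of 1380 member values kept direction and call, 21 gained a call, 4 lost it and 17 turned in sign. With DMSO as the control the turned values were NFKB2 at 0.48 after YAP/TAZ siRNA, 0.19 with its mix 2 and 0.16 with BRD siRNA mix B, NFKB1 at -0.72 after BRD siRNA and -0.66 with mix A, BIRC3 at 0.81 with YAP/TAZ siRNA mix 1, and NFKBIA at 0.42 and NFKBIE at 0.13 with mix 2. In these the control differs by construction. The other turned values lay near 0 and were not called. They were NFKBIE after YAP/TAZ siRNA at -0.0359 with median-ratio scaling and -0.0377 with DESeq2, RELA with JQ1 at -0.0118 and -0.0131 with these, RELA at 0.0322 and NFKBIE at 0.0489 with YAP/TAZ siRNA mix 2 and RELA at 0.0277 between control siRNA and DMSO under upper-quartile scaling, and NFKB1 in the JQ1 minus YAP/TAZ siRNA effect at -0.0567 with a pseudocount of 4 and -0.00054 with upper-quartile scaling. Leaving out libraries turned 13 differences, none of them called with the turned sign. Against control siRNA, NFKB1 ran between -0.0252 and 0.11 after BRD siRNA and between -0.0891 and 0.0486 with mix B, NFKB2 between -0.28 and 0.00601 after YAP/TAZ siRNA, and NFKBIE between -0.12 and 0.13 after YAP/TAZ siRNA, -0.0844 and 0.16 with mix 1, and -0.155 and 0.0923 with mix 2. With mix 2, RELA ran between -0.10 and 0.00465 and RELB between -0.0433 and 0.21. RELA ran between -0.0259 and 0.0775 with JQ1 and between -0.0659 and 0.0376 for control siRNA against DMSO, NFKB1 between -0.0492 and 0.0885 in the JQ1 minus YAP/TAZ siRNA effect, NFKBIE between -0.0264 and 0.17 for mix 1 against mix 2, and BIRC3 between -0.0292 and 0.17 for mix A against mix B. RELB with JQ1, at a limma adjusted p of 0.0521, passed with edgeR (0.0433), median-ratio scaling (0.0279) and a filter at 5 (0.0452). It also passed with no variance trend (0.0368) and with only the libraries compared (0.0247). The call changed as well on leaving out any 1 of 5 libraries. Of these, the control siRNA and BRD siRNA mix A libraries do not enter the difference, which stayed at -0.25 without them. Leaving them out acts only through the spread shared by the groups and the adjustment over all genes. Without JQ1 replicate 1 the difference was -0.34. No scaling moved the median of all genes by over 0.1. A lone library left in a group was assumed to vary like the others. The low depth of TNFAIP3, and 2 libraries a group, limit the precision.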

Other observations

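The cytokine genes IL6, CXCL8 and IL1B, which NF-kB is known to induce, were picked out after their values were seen. IL6, a cytokine of the acute-phase response, averaged 0.353 and 0.426 scaled RPM after BRD siRNA mix A and mix B, against 2.11 with control siRNA, and 0.13 with JQ1, against 0.6 with DMSO. The differences were -1.16 after BRD siRNA (limma adjusted p = 6e-09) and -0.50 with JQ1 (0.00143). After YAP/TAZ siRNA IL6 averaged 1.16 scaled RPM with mix 1 and 2.67 with mix 2, and the joint difference of -0.14 was not called (adjusted p = 0.258). CXCL8, a chemokine for neutrophils, averaged 9.1 and 6.09 scaled RPM after YAP/TAZ siRNA mix 1 and mix 2, 4.03 and 5.93 after BRD siRNA mix A and mix B and 8.23 with control siRNA, and 2.69 with JQ1, against 5.25 with DMSO. It differed by -0.66 after BRD siRNA and by -0.76 with JQ1, and its difference of -0.13 after YAP/TAZ siRNA was not called (adjusted p = 0.331). IL1B averaged 4.52 scaled RPM after YAP/TAZ siRNA mix 1 and 0.62 after mix 2, against 0.481 with control siRNA, and its difference over both mixes was 1.01 (adjusted p = 5.55e-08). The mix 2 mean lay close to control siRNA, so this joint difference rested on mix 1. IL6 and IL1B lay under 1 scaled RPM in several groups, where a single read was worth 0.0276 to 0.0602. Their values there rest on few reads.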
